A study of Aspergillus oryzae with 8 samples.

Results

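A set of 6 genes of the fungal cell wall and cell surface were followed through mycelium of the mould Aspergillus oryzae strain RIB40. They were the glucan synthase gene ags2 (AO090026000523), AO090020000588, which the selection describes as a hyphal surface protein and to which the reference gives no symbol, the chitinase gene chi3 (AO090020000231), agm1 (AO090001000429), bgt2 (AO090009000117) and eng2 (AO090023000083). They are 6 of the 11880 genes that the deposited files list, and all 6 were among the 9438 genes with enough reads to be tested. The genes were chosen by locus tag with their values in these libraries known, so their levels and calls below describe them and are no independent evidence. The study sequenced RNA from mycelium under endoplasmic reticulum (ER) stress, caused with the reducing agent dithiothreitol (DTT) at 20 mmol/L, and from untreated mycelium. Each was grown on a solid surface and in shaken liquid, with 2 libraries per condition, in the order solid DTT, solid control, liquid DTT and liquid control. All cultures used the same strain and the same modified Czapek-Dox (CD) medium with glucose. Control mycelium was grown for 40 h at 30 °C, on agar under cellophane or in flasks shaken at 200 rpm. For treatment on the solid surface, mycelium and cellophane were moved onto filter paper wetted with medium that held DTT, a step with no counterpart in the labels of the controls. In liquid, DTT was added to the flask. The labels give no growth time or temperature for treated mycelium and no length of exposure to DTT.

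The wall of a filamentous fungus is a mesh of glucans and chitin that the hypha builds at its tip and remodels behind it. Alpha-glucan is made by synthases of the Ags type and forms an outer layer, chitin is polymerised from a nucleotide sugar made in the cytosol, and beta-glucan is branched, joined and cut by enzymes outside the cell. Many of these enzymes and the proteins of the surface pass through the ER, the compartment whose folding DTT disturbs.

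The 8 libraries held 5880753 to 8912897 reads assigned to genes, of which 8.2% to 37.6% were on ribosomal RNA genes. Replicate 1 of every condition was a library of 500 bp inserts labelled polyA RNA, and replicate 2 a library of 200 bp inserts labelled total RNA, so replicate number, insert size and RNA label cannot be told apart. The labels do not say that the 2 libraries of a condition came from separate cultures, so the p-values rest on a library-to-library spread that could be technical alone. Levels are CPM, the reads of a gene scaled to a library of fixed size with a further TMM factor per library, and 3 reads correspond to 0.34 to 0.51 CPM before that scaling. Changes are log2 fold changes ± the standard error (SE) from edgeR's quasi-likelihood test over all 8 libraries, and a gene was called at a Benjamini-Hochberg adjusted p under 0.05 over the 9438 genes. The ER chaperone gene bipA (AO090003000257) was called higher under DTT, by 3.54 ± 0.78 in solid culture and 4.16 ± 0.80 in liquid culture. With each library left out in turn, its change ran from 3.46 to 3.63 in solid culture and from 3.86 to 4.52 in liquid culture. The solid call was lost without any 1 of the 4 solid libraries, and the liquid call without either liquid control library. In bulk RNA, fewer cells that express a gene and less of its RNA per cell cannot be told apart.

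Of the 6 genes, ags2, AO090020000588 and chi3 were called higher in solid than in liquid culture, with DTT and without it, and chi3 was at 0 in liquid culture. The other 3 were read in every library. Under DTT agm1 was called lower in both cultures, whereas bgt2 was called higher and eng2 lower in liquid culture alone, and the test of the difference between cultures called neither. The plot of levels by library shows both patterns. With 2 libraries per condition, groups can easily lie apart by chance, and the share of all tested genes that did so was not computed. Without DTT, for example, both solid libraries of agm1 lay above both liquid libraries at a difference of 0.16 ± 0.44 that was not called. Where groups are said to lie apart, this describes the libraries, and nothing is read from it.

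**Figure D1:**
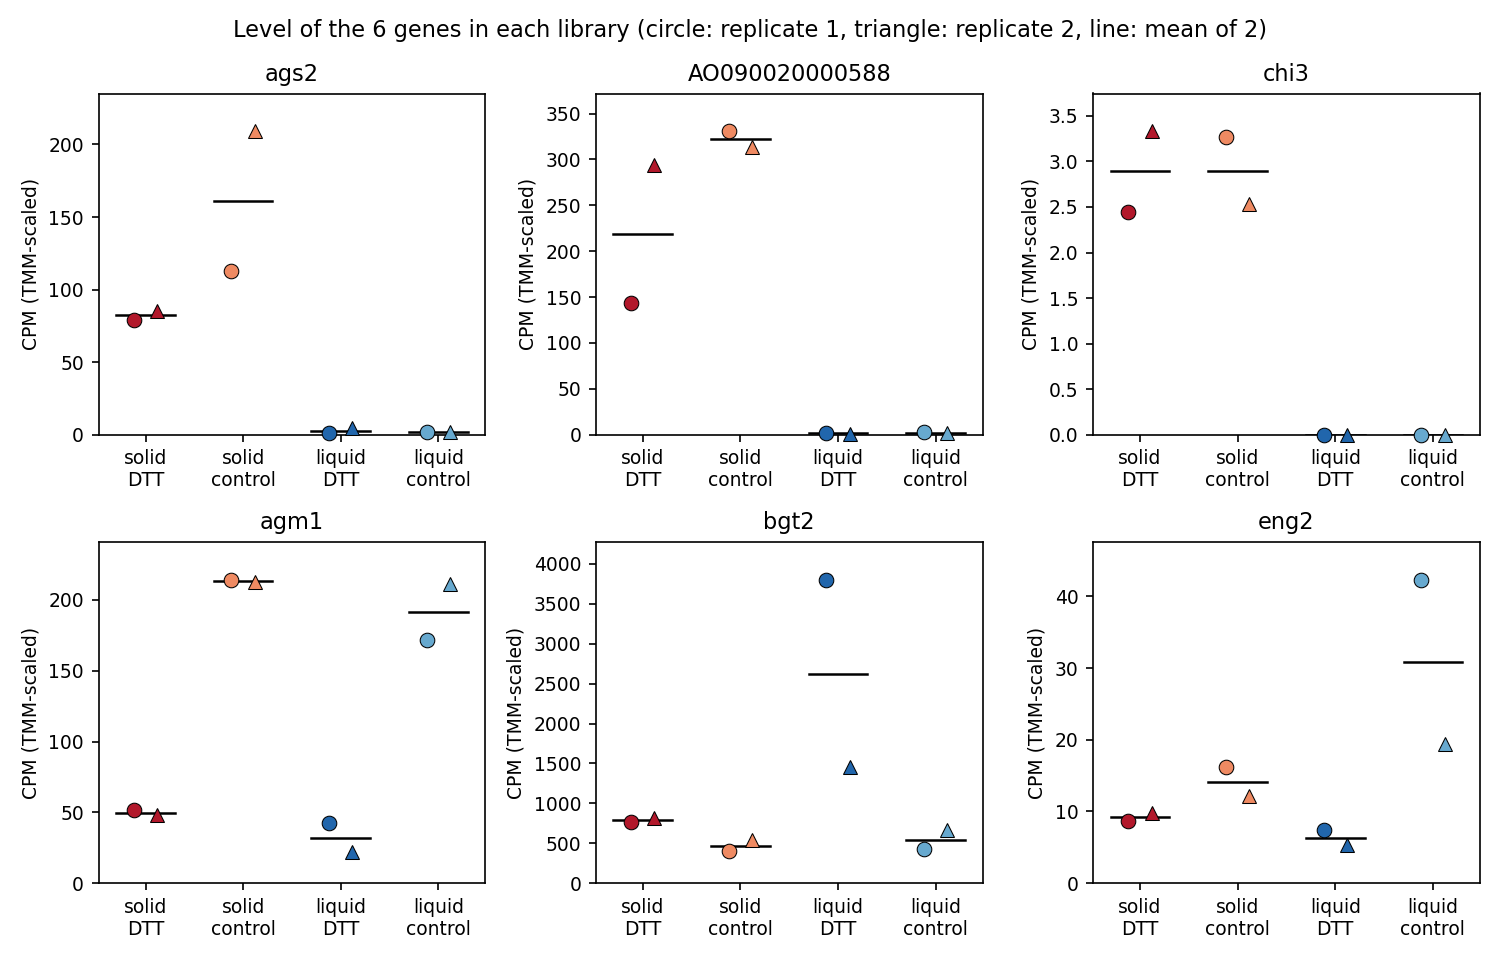
Level of each of the 6 genes in each library, in TMM-scaled CPM on linear axes that start at 0 and differ between genes; circles are replicate 1, triangles replicate 2 and lines the mean of 2. For ags2, AO090020000588 and chi3 every solid library lies above every liquid library, and for agm1 every DTT library lies below every control library of the same culture.

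The gene ags2 encodes a synthase of alpha-1,3-glucan. It had 79.0 and 85.4 CPM in the solid DTT libraries, against 112.6 and 209.0 CPM in the solid control libraries. In liquid culture it had 1.13 and 4.33 CPM with DTT, against 1.61 and 1.86 CPM without it. All 4 solid libraries were above all 4 liquid libraries, both DTT libraries on the solid surface were below both controls, and the liquid groups overlapped. Solid culture exceeded liquid culture by 4.83 ± 0.66 on the log2 scale under DTT and by 6.51 ± 0.72 without it. Within replicate 1 the ratio of solid to liquid CPM was 70.0 under DTT and 70.1 without it, and within replicate 2 it was 19.7 under DTT and 112.1 without it. The DTT effect was -0.97 ± 0.55 in solid culture and 0.72 ± 0.63 in liquid culture, and neither was called. The liquid value turned to -0.57 without liquid DTT replicate 2, the library that held 41 of the 46 ags2 reads of its condition.

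Reads lay along most of the ags2 coding sequence in solid culture and on little of it in liquid culture. The share of its bases covered was 82.2% and 94.4% in the solid DTT libraries and 83.5% and 98.8% in the solid control libraries. It was 3.06% and 19.9% in the liquid DTT libraries and 5.51% and 10.1% in the liquid control libraries, from 5 to 41 reads per library. The liquid values rest on these few reads over a coding length of 7191 bases.

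Aspergillus oryzae has other synthases of the same family, ags1 (AO090003001500) and ags3 (AO090010000106), which were read in both cultures. The ags1 level was 479.0 and 525.8 CPM in the solid DTT libraries and 312.3 and 502.5 CPM in the solid control libraries. It was 407.0 and 1005 CPM in the liquid DTT libraries and 156.7 and 234.7 CPM in the liquid control libraries. Neither ags1 nor ags3 was called in any comparison by the fit without a replicate term. The ags1 change nearest to a call was 1.85 ± 0.61 for DTT in liquid culture (adjusted p = 0.0624, edgeR), and it was called with the replicate block (1.77, adjusted p = 0.0196) and by DESeq2 (adjusted p = 0.00528). The ags3 gene stood at 1.66 ± 0.88 for DTT in solid culture and 1.59 ± 0.88 in liquid culture.

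As a share of the reads on the 3 synthase genes, ags2 gave 11.1% (exact 95% interval 10.2 to 12.1) and 12.1% (11.4 to 12.8) in the solid DTT libraries. In the solid control libraries it gave 24.1% (22.5 to 25.8) and 27.9% (26.9 to 29.0). In the liquid DTT libraries the share was 0.213% (0.0693 to 0.497) and 0.278% (0.199 to 0.376), and in the liquid control libraries 0.843% (0.386 to 1.6) and 0.436% (0.254 to 0.698). The family was therefore read almost entirely from ags1 and ags3 in liquid culture. In each culture the ags2 share was lower in both DTT libraries than in both controls, although the liquid ags2 levels overlapped. The share depends on ags1 and ags3 too. The mean ags3 level was 122.9 CPM with DTT and 39.0 CPM without it in solid culture, and 336.0 and 111.3 CPM in liquid culture. Each share was taken within its library, and the intervals cover counting error alone. The comparison of shares between libraries was not tested and has no error for the spread between libraries. How the authors treated reads that match more than 1 synthase gene is not given in the sources used here, and the effect of shared reads on these shares was not tested.

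**Figure D2:**
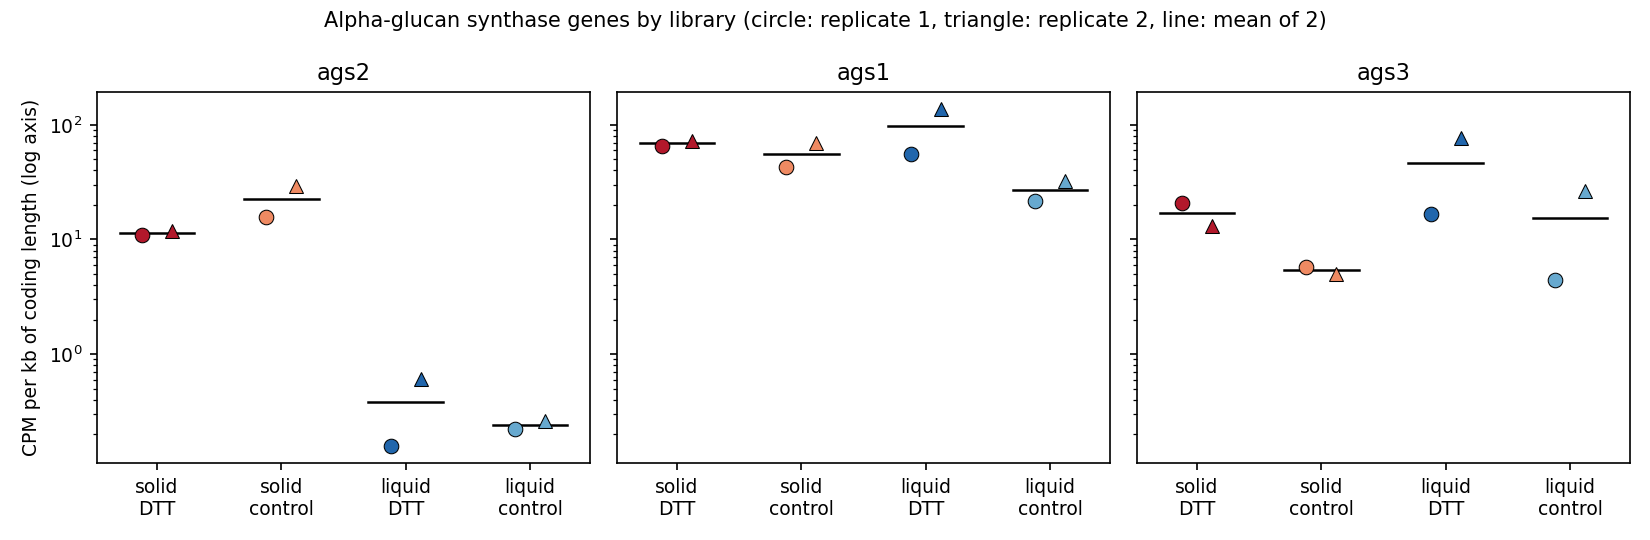
Levels of ags2, ags1 and ags3 in each library, in TMM-scaled CPM per kb of coding length on a log axis, by condition; circles are replicate 1, triangles replicate 2 and lines the mean of 2. The ags2 mean was 11.4 and 22.4 CPM per kb in the solid DTT and control libraries, against 0.38 and 0.241 in the liquid DTT and control libraries, while ags1 and ags3 stay above 1 CPM per kb in every library.

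AO090020000588, the surface protein of the selection, is short, with a coding length of 456 bases. It had 143.2 and 293.5 CPM in the solid DTT libraries, against 330.5 and 313.8 CPM in the solid control libraries. In liquid culture it had 2.26 and 0.739 CPM with DTT, against 2.86 and 1.75 CPM without it. The solid libraries all lay above the liquid libraries, and both solid DTT libraries lay below both solid controls. Solid culture exceeded liquid culture by 7.28 ± 0.75 under DTT and by 7.14 ± 0.74 without it, and these differences ranked 63 and 80 from the top among the 9438 genes. The corresponding ranks of ags2 were 208 under DTT and 103 without it. Within replicate pairs the ratio of solid to liquid CPM was 63.4 and 396.9 under DTT and 115.8 and 178.9 without it. The DTT effect was -0.56 ± 0.55 in solid culture and -0.70 ± 0.67 in liquid culture, and neither was called. Between 98.9% and 100.0% of its bases were covered in the solid libraries, against 45.4% to 73.7% in the liquid libraries from 7 to 16 reads each.

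The chitinase gene chi3 was at 0 in all 4 liquid libraries. It had 2.45 and 3.33 CPM in the solid DTT libraries, from 15 and 37 reads, against 3.27 and 2.53 CPM in the solid control libraries, from 19 and 24 reads. The 2 solid conditions overlapped, at 0.01 ± 0.72 for DTT against control. No liquid library lists the gene. A condition at 0 allows only a lower bound, which was taken against 3 reads over the whole liquid condition. It covers counting error of the liquid reads only and takes the solid reads at their measured number. On this basis chi3 was at least 14.0-fold higher in solid than in liquid culture under DTT, with 52 against 0 reads, and at least 13.8-fold higher without DTT, with 43 against 0 reads. The gene was called in both culture comparisons, but it kept that call in only 1 of 8 fits with a library left out under DTT and in 2 of 8 without DTT. The fits that kept it left out liquid control replicate 1 under DTT, and either liquid DTT library without DTT. In the fits that lost it the adjusted p lay between 0.0513 and 0.205 under DTT and between 0.0672 and 0.151 without DTT.

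Another chitinase gene, chiA1 (AO090102000586), was read in every library, and chi3 made up a small part of the reads on the pair. The chi3 share was 0.716% and 1.24% in the solid DTT libraries and 0.316% and 0.498% in the solid control libraries. In the liquid libraries 0 reads allow a share of up to 0.104% and 0.0524% with DTT and 0.17% and 0.0561% without it. The chiA1 change under DTT was -1.35 ± 0.59 in solid culture and 0.48 ± 0.58 in liquid culture, and the gene was not called in any comparison.

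In the comparison of solid with liquid culture, 3 of the 6 genes were called higher and 0 lower, both with and without DTT. Among all tested genes 2.95% were called under DTT (2.35% higher and 0.593% lower) and 3.89% without it (2.23% higher and 1.66% lower). The genes called higher in both made up 1.05% of all tested genes. The calls of ags2 and AO090020000588 were kept in each of the 8 fits that left out 1 library, with adjusted p of at most 0.0386 for ags2 and at most 0.028 for AO090020000588 (edgeR). Since the genes were picked from these contrasts, nothing is read from the counts.

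Mycelium on a surface can also hold structures that form spores, so 13 genes of conidiation were followed beside these results. Their summed level was 299.1 and 328.6 CPM in the solid DTT libraries, 338.8 and 461.7 CPM in the solid control libraries, 505.5 and 516.0 CPM in the liquid DTT libraries and 578.7 and 458.5 CPM in the liquid control libraries. The sum was lower in both solid libraries than in both liquid libraries under DTT, and the groups without DTT overlapped. Abundant markers weigh most in this sum, so nothing is read from it about spore-forming cells. In the liquid control libraries the regulators medA and veA had means of 198.1 and 118.1 CPM, against 1.98 CPM for brlA. In the liquid DTT libraries medA had a mean of 152.9 CPM and wetA of 121.9 CPM, against 2.07 CPM for brlA and 4.63 CPM for pksP. The markers did not move together, with log2 differences of solid against liquid culture from -2.35 to 3.69 under DTT (median -0.45) and from -1.97 to 5.14 without it (median 0.06). Between 0 and 2 of the 13 were at 0 in a library, and abaA, another defining regulator, was not analysed here. Of the 12 that could be tested, 1 was called higher in solid culture under DTT and 0 without DTT, against 2.35% and 2.23% of all tested genes. With the replicate block 2 were called higher and 2 lower under DTT, and 1 higher without it, against 10.5% and 8.17% of all tested genes called in either direction. The marker called higher in solid culture under DTT without the block was brlA, a regulator that starts conidiation. Its level was 11.4 and 18.7 CPM in the solid DTT libraries and 8.08 and 9.80 CPM in the solid control libraries. It had 2.03 and 2.11 CPM in the liquid DTT libraries and 2.86 and 1.10 CPM in the liquid control libraries, and its difference was 2.85 ± 0.63 under DTT and 2.21 ± 0.62 without it. Its call, at an adjusted p of 0.0486, was kept in 2 of the 8 fits that left out 1 library, those without a liquid control library, and lay between 0.084 and 0.254 in the others (edgeR). For DTT against control, flbD was called lower in solid culture (-2.29 ± 0.59) and veA in liquid culture (-1.88 ± 0.40), and each lost its call without some single library of that culture, at adjusted p of up to 0.229 for flbD and 0.0659 for veA (edgeR). Among all tested genes 4.44% were called lower in solid culture and 11.1% in liquid culture. With the replicate block 2 markers were called lower in solid culture, and 2 higher and 3 lower in liquid culture. The block called 20.1% of all tested genes in solid culture and 31.6% in liquid culture, in either direction. The spore pigment genes ayg1 and pksP, chosen here after their values were seen, were higher in solid culture and not called without the block. A further pigment gene of the list, arp2 (AO090026000019), had too few reads to be tested. It had 1 read in solid DTT, 3 in solid control, 2 in liquid DTT and 0 in liquid control libraries, so it showed no such difference. The ayg1 level was 1.80 and 4.59 CPM in the solid DTT libraries and 1.38 and 4.32 CPM in the solid controls, against 0.452 and 0.106 CPM in the liquid DTT libraries and 0.0 and 0.11 CPM in the liquid controls. Its adjusted p was 0.098 under DTT and 0.0639 without it (edgeR), or 0.0409 without DTT with the block, and every solid library was above every liquid library. For pksP the levels under DTT were 14.4 and 59.9 CPM in solid culture against 4.29 and 4.96 CPM in liquid culture, a difference of 3.0 ± 0.72 (adjusted p = 0.0609, edgeR, and 0.0205 with the block), and without DTT the difference was 0.94 ± 0.66. Lower in solid culture were catA, at -2.35 ± 0.68 under DTT, and the later regulator wetA, at -2.28 ± 0.81, both called only with the block (0.0422 for each) and by DESeq2, with 34.0 and 16.3 CPM in the solid DTT libraries against 205.8 and 38.0 CPM in the liquid DTT libraries. The part of spore-forming cells in the levels of ags2, AO090020000588 and chi3 was not tested.

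The gene agm1 encodes phosphoacetylglucosamine mutase, an enzyme known from yeast on the route to the nucleotide sugar from which chitin is made. It was the 1 gene of the 6 that was called under DTT in both cultures. It had 51.6 and 47.9 CPM in the solid DTT libraries, against 214.1 and 212.9 CPM in the solid control libraries. In liquid culture it had 42.7 and 21.7 CPM with DTT, against 171.8 and 211.2 CPM without it. All DTT libraries lay below all control libraries, and the 2 solid controls differed by little. The level fell by 2.10 ± 0.45 in solid culture and by 2.58 ± 0.46 in liquid culture on the log2 scale. Within replicate pairs the ratio of DTT to control CPM was 0.241 and 0.225 in solid culture and 0.248 and 0.103 in liquid culture. The DTT effect in solid culture minus that in liquid culture was 0.48 ± 0.62, and the difference was not called. Between the cultures agm1 differed by 0.63 ± 0.44 under DTT and 0.16 ± 0.44 without it, and neither was called.

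The liquid call of agm1 was kept in each of the 8 fits that left out 1 library, with adjusted p from 0.0165 to 0.0396 (edgeR). The solid call was lost without solid DTT replicate 1 (adjusted p = 0.145), solid DTT replicate 2 (0.177), solid control replicate 1 (0.103) or solid control replicate 2 (0.142). The ribosomal RNA share was 37.6% and 17.1% in the solid DTT libraries, against 27.1% and 8.2% in the solid controls. The call was kept with these genes left out, a step that mainly rescales the libraries, which TMM does in any case. Whether RNA quality differed between these libraries was not tested. The log2 fold change stayed between -2.17 and -1.97 in the fits that lost the solid call. Those fits leave 1 library in a condition and take it to vary like the other conditions.

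On the same route gfa1, the gene of the enzyme that makes glucosamine phosphate, was not called under DTT, at -0.19 ± 0.63 in solid culture and 0.62 ± 0.63 in liquid culture. As a share of the reads on agm1 and gfa1, agm1 gave 5.86% and 4.81% in the solid DTT libraries and 19.7% and 15.6% in the solid control libraries. In liquid culture the share was 4.71% and 1.22% with DTT and 22.7% and 15.9% without it. Each DTT library had a lower share than each control. The gene pmi1 (AO090012000554) for mannose phosphate isomerase, which serves mannan and glycoprotein synthesis and stood in the same list as gfa1, was called lower under DTT in both cultures, at -2.15 ± 0.46 in solid culture and -2.22 ± 0.46 in liquid culture. It had 38.9 and 35.3 CPM in the solid DTT libraries against 134.8 and 194.0 CPM in the solid controls, and 27.6 and 37.1 CPM in the liquid DTT libraries against 107.4 and 194.5 CPM in the liquid controls. As a share of the reads on agm1 and pmi1, agm1 stayed between 52.3% and 61.4% in the solid libraries. In the liquid libraries it was 60.8% and 36.9% with DTT, against 61.5% and 52.1% without it. The pmi1 solid call was lost without any 1 of the 4 solid libraries, at adjusted p of 0.0792 to 0.166, and the liquid call without liquid DTT replicate 1 (0.068) or liquid control replicate 2 (0.0699, edgeR).

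**Figure D3:**
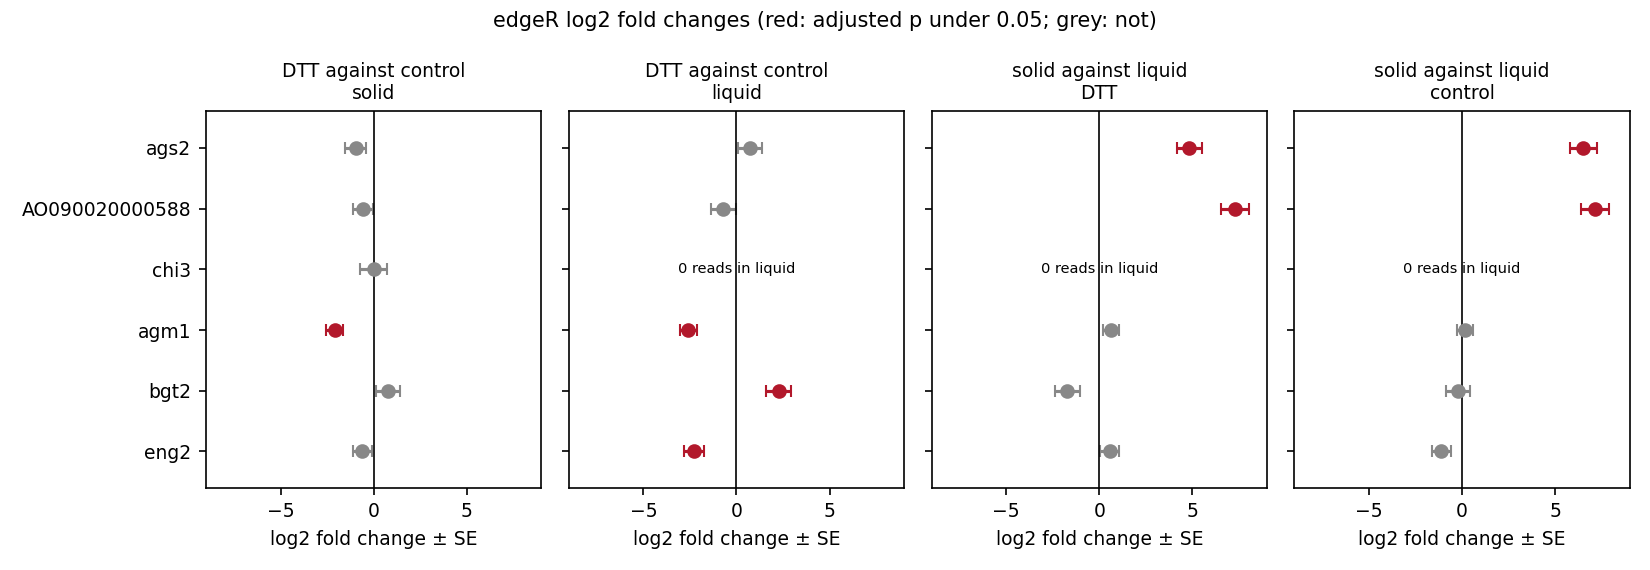
Log2 fold change ± SE of the 6 genes in each comparison (edgeR), for DTT against control and for solid against liquid culture, with red points for called genes and grey for the others; chi3 has no fold where a condition is at 0. The agm1 points for DTT lie at -2.10 and -2.58, and the ags2 and AO090020000588 points for solid against liquid culture lie between 4.83 and 7.28.

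The gene bgt2 is named after an enzyme that, in Aspergillus fumigatus, transfers beta-1,3-glucan chains to form branches. It had 771.8 and 820.9 CPM in the solid DTT libraries, against 403.8 and 535.3 CPM in the solid control libraries. In liquid culture it had 3799.3 and 1451.6 CPM with DTT, against 423.3 and 664.9 CPM without it. Each DTT library was above each control library of its culture, and liquid DTT replicate 1 held the highest value of the 8. The gene rose by 2.27 ± 0.68 under DTT in liquid culture, and the solid change of 0.76 ± 0.65 was not called. Within replicate pairs the liquid ratio of DTT to control CPM was 8.98 in replicate 1 and 2.18 in replicate 2, and the solid ratio was 1.91 in replicate 1 and 1.53 in replicate 2. The effects in the cultures differed by -1.51 ± 0.93, solid minus liquid, which was not called. Under DTT solid culture stood at -1.72 ± 0.67 against liquid culture, a difference that edgeR did not call (adjusted p = 0.166) and DESeq2 did (adjusted p = 0.0272).

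The liquid call of bgt2 lay close to the threshold, at an adjusted p of 0.0464 (edgeR), and was kept only without liquid DTT replicate 2, at 0.0259. It was lost without solid DTT replicate 1 (0.0733), solid DTT replicate 2 (0.0737), solid control replicate 1 (0.0765), solid control replicate 2 (0.0771), liquid DTT replicate 1 (0.168), liquid control replicate 1 (0.221) or liquid control replicate 2 (0.126). Without liquid DTT replicate 1 the log2 fold change was 1.41.

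Its relatives in name, bgt1 and bgt3, were not called under DTT by the fit without a replicate term. In the DTT libraries bgt1 was higher in replicate 1 than in replicate 2, at 705.0 CPM in replicate 1 and 120.3 CPM in replicate 2 in solid culture and at 1289.8 CPM in replicate 1 and 227.0 CPM in replicate 2 in liquid culture. In the control libraries bgt1 had 291.7 and 359.9 CPM in solid culture and 494.6 and 353.9 CPM in liquid culture. The bgt3 change in liquid culture was 1.18 ± 0.41, with an adjusted p of 0.0723 (edgeR), and it was called with the replicate block (0.0275) and by DESeq2 (0.0404). As a share of the reads on the 3 genes, bgt2 gave 49.1% and 81.0% in the solid DTT libraries, 51.4% and 56.0% in the solid controls, 71.2% and 77.3% in the liquid DTT libraries and 41.7% and 59.4% in the liquid controls. Both liquid DTT libraries were above both liquid controls, whereas the solid groups overlapped.

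The gene eng2 shares its name with an endo-beta-1,3-glucanase of Aspergillus fumigatus, an enzyme that cuts inside beta-glucan chains. It had 8.65 and 9.80 CPM in the solid DTT libraries, against 16.2 and 12.1 CPM in the solid control libraries. In liquid culture it had 7.45 and 5.28 CPM with DTT, against 42.3 and 19.4 CPM without it. Every DTT library was below every control library of its culture, and the 2 liquid controls were the highest of the 8. The liquid level fell by 2.28 ± 0.54 on the log2 scale, while the solid change of -0.61 ± 0.51 was not called. Within replicate pairs the liquid ratio of DTT to control CPM was 0.176 and 0.272. The effect in solid culture minus that in liquid culture was 1.67 ± 0.73, with an unadjusted p of 0.0481 and an adjusted p of 0.463 (edgeR). The liquid call was lost without liquid DTT replicate 1 (adjusted p = 0.056), liquid DTT replicate 2 (0.0797) or liquid control replicate 1 (0.129). Without liquid control replicate 1 the log2 fold change was -1.63.

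Counting calls under DTT, 0 of the 6 genes were called higher and 1 lower in solid culture, against 9.3% of all tested genes called, 4.86% higher and 4.44% lower. In liquid culture 1 was called higher and 2 lower, against 20.0% of all tested genes called, 8.91% higher and 11.1% lower. Genes called higher in both cultures, with none of the 6 among them, made up 2.89% of all tested genes. Genes called lower in both made up 2.62%, among them agm1, whose fall ranked 575 in solid culture and 729 in liquid culture. The test of whether the DTT effect differed between cultures called 0 of the 6 genes and 0 of the 9438 (0.0% of all tested genes), with 1003 genes at an unadjusted p under 0.05. DESeq2 called 217 genes in that test, edgeR without the filter on low counts 26, and edgeR with the replicate number as a term 23.

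Levels between genes were compared per kilobase of coding length, using the length that the deposited coverage fractions imply. In solid DTT libraries bgt2 (572.1 ± 25.0 CPM per kb, SD, n = 2) and AO090020000588 (478.8 ± 233.1) were the highest and did not differ beyond their spread. There followed agm1 at 30.4 ± 1.58, ags2 at 11.4 ± 0.629, eng2 at 4.60 ± 0.405 and chi3 at 2.13 ± 0.459. In solid control libraries AO090020000588 stood at 706.5 ± 25.9, bgt2 at 337.3 ± 66.8, agm1 at 130.3 ± 0.533, ags2 at 22.4 ± 9.47, eng2 at 7.06 ± 1.43 and chi3 at 2.14 ± 0.386 CPM per kb. In liquid culture bgt2 and agm1 were the highest of the 6 with DTT and without it. With DTT, eng2 (3.18 ± 0.766) and AO090020000588 (3.29 ± 2.36) lay within their spread. For bgt2 the fractions fitted 2 lengths, and the longer, 1392 bases, was used, so its place in these orders rests on that choice.

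Beyond the 6, 38 genes of the wall and surface that carry a symbol in the reference were followed, a list chosen by name. Under DTT in solid culture 1 was called higher, the mannosyltransferase gene och3 (AO090010000615, 3.28 ± 0.50), and 1 lower, pmi1. The och3 call was lost without solid DTT replicate 2, solid control replicate 1 or solid control replicate 2, at adjusted p of 0.0591, 0.0688 and 0.0989 (edgeR). Under DTT in liquid culture 0 were called higher and 1, pmi1, lower. Among all tested genes 9.3% were called in solid culture and 20.0% in liquid culture. With the replicate block the same number, 1 higher and 1 lower, were called in solid culture (20.1% of all tested genes called), and 3 higher and 4 lower in liquid culture (31.6%). Those higher were ags1, bgt3 and gel6 (1.83, adjusted p = 0.0366), and those lower pmi1, the signalling genes crzA (-1.11, 0.0357) and mpkA (-1.07, 0.0399) and pmt2 (-1.02, 0.0465, edgeR), a protein mannosyltransferase gene. DESeq2 called 2 of the 38 in solid culture (17.0% of all genes with an adjusted p) and 4 in liquid culture (25.7%). The median log2 change of the 38 was 0.11 in solid culture, against -0.05 over all tested genes, and 0.05 in liquid culture, against -0.03. None of the 9 chitin synthase genes was called in any comparison by the edgeR fit of all libraries without the block. Between cultures under DTT chsF was called with the block (-1.31, adjusted p = 0.043) and by DESeq2 (0.0298), and chsB was called lower under DTT in liquid culture without liquid DTT replicate 1 (-2.83, adjusted p = 0.0344, edgeR). The DTT changes of the 9 ran from -1.26 to 1.27 in solid culture and from -0.74 to 0.94 in liquid culture. The 7 genes of wall integrity signalling, with 0 called without the block, had changes from -0.88 to 0.72 in solid culture and from -1.16 to 0.77 in liquid culture. The 8 other beta-glucan genes ran from -1.18 to 1.12 in solid culture and from -0.50 to 2.06 in liquid culture, with 0 called under DTT without the block.

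Between the cultures 2 of the 38 genes were called without DTT, against 3.89% of all tested genes. The exo-beta-1,3-glucanase gene exg1 (AO090003000990) was called higher in solid culture (3.40 ± 0.59) and och3 lower (-3.69 ± 0.51). The exg1 call was lost without any 1 of the 4 control libraries, at adjusted p of 0.05 to 0.117, and the och3 call without solid control replicate 1 (0.0623) or solid control replicate 2 (0.0815, edgeR). Under DTT 0 were called in either direction by edgeR, with 5 at an unadjusted p under 0.05, against 2.95% of all tested genes called. DESeq2 called 3 of the 38 (11.5% of all genes with an adjusted p), edgeR with the replicate block 3 (10.5%) and edgeR without the filter on low counts 1. Without DTT the block called 2 and DESeq2 3, against 8.17% and 8.86%. The median of the 38 for solid against liquid culture was -0.49 under DTT, against 0.02 over all tested genes, and -0.38 without DTT, against 0.03. The surface protein gene cspA was not called without the block, at 5.28 ± 1.49 under DTT and 3.73 ± 1.36 without it. Under DTT it was called with the block (4.93, adjusted p = 0.0279, edgeR). It had 3.92 and 52.6 CPM in the solid DTT libraries, 2.58 and 30.5 CPM in the solid controls, 0.678 and 0.739 CPM in the liquid DTT libraries and 0.892 and 1.53 CPM in the liquid controls. The solid libraries were above the liquid libraries, and replicate 2 was far above replicate 1 in solid culture. The deposited cspA counts and coverage do not match. In the liquid libraries 3 to 14 reads stood beside 23.6% to 76.5% of 3045 bases covered, more than that many 44-base reads can span. Replicate 1 in solid culture showed the same, with 24 reads and 75.3% under DTT and 15 reads and 73.9% without it. The cause was not tested, and the cspA levels and calls are uncertain for this reason.

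**Figure D4:**
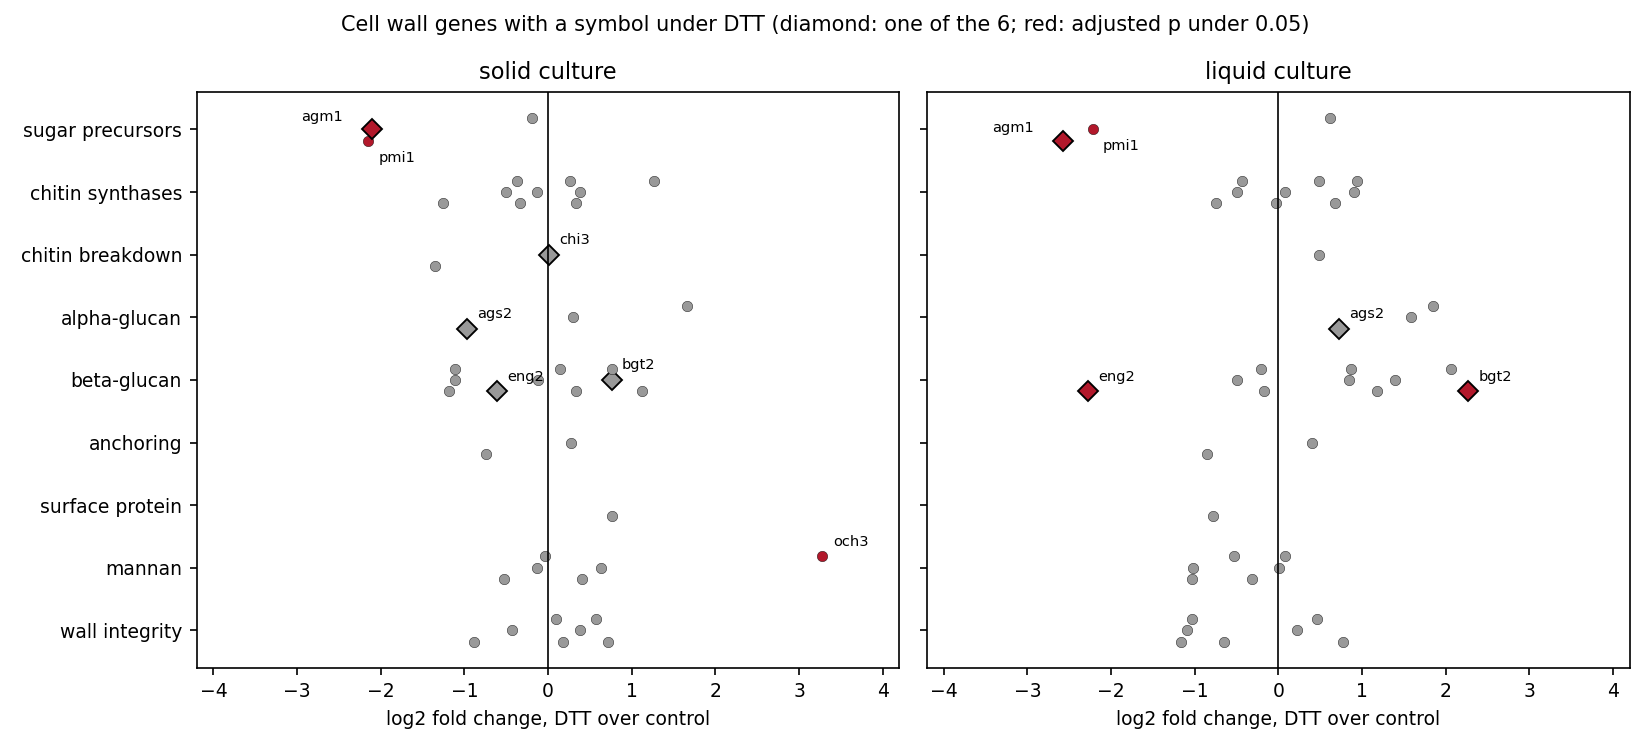
Log2 fold change of DTT against control for the 6 genes and the 38 other wall genes (edgeR), except AO090020000588, which carries no symbol, and chi3 in liquid culture, which is at 0 there. Panels are solid and liquid culture, genes are grouped by role down the page, diamonds are the 6 genes and red marks a call without the replicate block; agm1 and pmi1 lie below -2 in both panels.

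The 3 tested genes whose levels were most like each of the 6 were named by Pearson's r of log2 CPM over the 8 libraries, as a description. For ags2 these were gliP (AO090001000043, r = 0.994), AO090038000099 (0.993) and AO090001000026 (0.99). AO090020000588 was most like AO090010000587 (0.991) and AO090038000100 (0.991), and chi3 most like AO090038000213 (0.998) and AO090010000691 (0.996). AO090009000111 came next for both, at 0.99 for AO090020000588 and 0.995 for chi3. For agm1 they were AO090102000369 (0.992), tktA (AO090012000526, 0.985) and AO090020000410 (0.984). For bgt2 they were AO090005001429 (0.985), AO090012000247 (0.983) and AO090120000385 (0.983), and for eng2 AO090001000187 (0.981), AO090005000387 (0.981) and AO090701000599 (0.974). The 8 libraries share their conditions, and between 13 and 107 tested genes had an r of at least 0.95 with each of the 6.

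The genes lying next to the 6 along the chromosome were taken from the order of genes in the RefSeq annotation ASM18445v3, a choice made after the values were seen. Of 24 neighbours, 2 on each side, 17 could be tested. For solid against liquid culture, 2 were called higher under DTT, AO090026000521 beside ags2 and AO090001000431 near agm1, and 3 without DTT, AO090020000232 beside chi3 and AO090023000081 and AO090023000082 beside eng2. Among all tested genes 2.35% were called higher under DTT and 2.23% without it, and nothing is read from counts this small. For DTT against control, 2 neighbours were called lower in solid culture and 4 in liquid culture, against 4.44% and 11.1% of all tested genes. With the replicate block the neighbours called higher in solid culture came to 5 under DTT and 3 without it, with 1 lower without DTT. The block called 10.5% and 8.17% of all tested genes there, in either direction. For DTT against control it called 3 neighbours lower in solid culture, and 1 higher and 4 lower in liquid culture. Its shares of all tested genes there were 20.1% and 31.6%, in either direction. Without the block, the neighbours called lower under DTT in both cultures were AO090026000521 and, on the other side of ags2, luA (AO090026000524). Those called lower in liquid culture alone were AO090020000229 beside chi3 and AO090001000431. No tested neighbour of AO090020000588 was called in any of these comparisons.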

How the data were processed

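The authors deposited, per the file headers, a table per library with the count of reads per gene and the fraction of the gene's length that reads covered. The read counts were used as deposited for all tests, and the deposited coverage fraction was used, as a percentage, to describe depth along a gene and to infer coding length. The sources used here name no aligner or annotation build and do not say how reads that match several genes were counted. Gene symbols and gene order came from RefSeq ASM18445v3, to which all 11880 listed genes matched.

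Genes with low counts were removed with filterByExpr, leaving 9438, and counts were scaled by TMM and tested with edgeR 4.0.16 (R 4.3.3; quasi-likelihood test, 1 coefficient per condition, all 8 libraries, Benjamini-Hochberg adjustment over all tested genes in each comparison). The residual degrees of freedom were 4. The script was tested on simulated counts. Libraries with the same replicate number shared an insert size, and their deviations from the condition means correlated at 0.24 to 0.51, so the number pairs libraries. Comparing the 2 libraries of each condition, the chi-square per degree of freedom was 166.3 to 245.9, far above the value near 1 of counting noise, so none was treated as a repeat deposit. The alternatives were DESeq2 1.42.0, RLE scaling, no filter on low counts, rRNA genes left out, a replicate block, a fit of only the conditions compared, and each library left out in turn.

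The 6 genes and the gene lists were chosen with earlier results of these data known. Named beside them were the 3 genes most like each, called genes of each wall list (up to 3 by size of change) and bipA. Relatives and neighbours were added after the values were seen.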

Additional observations from a re-analysis of the deposited data

Results flagged for a closer look

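The exo-beta-1,3-glucanase gene exg1 moved one way in both solid pairs and the other way in both liquid pairs. It had 7.18 and 7.19 CPM in the solid DTT libraries against 11.5 and 19.5 CPM in the solid controls, and 2.94 and 4.75 CPM in the liquid DTT libraries against 1.25 and 1.64 CPM in the liquid controls. The DTT effect in solid minus liquid culture was -2.52 ± 0.78 on the log2 scale, and this difference was not called (adjusted p = 0.307, edgeR).

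The mannosyltransferase gene och3 had opposite directions too, with 12.7 and 16.7 CPM in the solid DTT libraries against 1.55 and 1.48 CPM in the solid controls, and 10.2 and 9.19 CPM in the liquid DTT libraries against 21.9 and 17.3 CPM in the liquid controls. The difference of its DTT effects was 4.30 ± 0.67, with an adjusted p of 0.0917 by edgeR, 0.0431 with the replicate block, 0.0338 without the filter on low counts and 0.00012 by DESeq2.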

How the results depend on the processing

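The 6 genes gave 28 results, recomputed under 14 settings for 387 values. Of these, 346 kept direction and side of the threshold, 30 lost a call, 10 turned direction and 1 gained a call; all 10 that turned were changes that had not been called. With each library left out in turn, the DTT change in liquid culture ran from -0.57 to 1.30 for ags2 and from -1.60 to 0.04 for AO090020000588, whose difference between cultures ran from -0.56 to 1.03. The DTT change of chi3 in solid culture ran from -0.16 to 0.19, and solid against liquid culture without DTT from -0.50 to 0.09 for bgt2. Without the filter chi3 in solid culture stood at -0.01.

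Counts over all genes moved more. With the replicate block, which pairs libraries by insert size, calls came to 1897 for DTT in solid culture, 2984 for DTT in liquid culture, 992 for solid against liquid culture under DTT, 771 without DTT and 23 for the difference of DTT effects, and no call of the 6 genes changed. Calls that changed among the other genes named are given beside them. DESeq2 gave 1635 for DTT in solid culture, 1102 and 872 between cultures with and without DTT, and 217 for the difference. Without the filter the counts were 610 and 569 between cultures and 26 for the difference. Fitting only the conditions compared gave 902 for DTT in liquid culture and 95 for solid against liquid culture under DTT. That fit also lost the liquid calls of bgt2 (adjusted p = 0.12) and eng2 (0.0593) and the chi3 call under DTT (0.0663, edgeR). With 1 library left out the counts ran from 6 to 1207 for DTT in solid culture, 614 to 1581 in liquid culture, 60 to 322 and 67 to 437 between cultures with and without DTT, and 0 to 7 for the difference. The cause of these shifts was not tested. In liquid culture ags2 rested on 5 to 41 reads a library and AO090020000588 on 7 to 16, and in solid culture chi3 rested on 15 to 37; no alternative varied depth.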
